A study of Mus musculus with 22 samples.

Results

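Lck, the gene of the Src family kinase that starts signalling at the T-cell receptor, was followed with its surroundings on chromosome 4 in thymocyte DNA of mice lacking Atm. It is 1 of the 24600 autosomal genes on the array, and its values come from the probes that the array files name Lck, 3 of 235402. A further 2 probes just beyond them carry the cDNA name BC011474, which the files describe as the same kinase, and were read beside them. The 1 Mb window from 128.5 to 129.5 Mb held 149 probes, against 13333 on the rest of chromosome 4. Lck was picked because of its copy number in these same arrays, so the values of Lck and of its window are a description and carry no test.

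Copy number was measured by array comparative genomic hybridisation (CGH), in which 2 DNAs labelled with different dyes compete for the same probes. Each of 22 arrays held DNA from thymocytes of 1 Atm-deficient mouse, labelled Cy5, against DNA of wildtype thymocytes, labelled Cy3, in the same dye orientation. The tumour group was 8 Atm-deficient mice with a thymic lymphoma, and the comparison group was 14 Atm-deficient mice with no visible finding. All mice were untreated, and the labels give no strain, age, sex or Atm allele. Each value is the log2 of the Atm-deficient signal over the wildtype signal, with 0 as the median of the autosomes, and errors are SD over mice with n = 8 lymphoma and n = 14 no-lymphoma mice. Thymus DNA can mix tumour and other cells, so fewer cells with a gain and a smaller gain per cell cannot be told apart.

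Lck sits under the membrane bound to the coreceptors CD4 and CD8, phosphorylates the CD3 and zeta chains of the receptor and recruits Zap70. Its activity is held down by Csk, which phosphorylates its tail, and by the phosphatase Ptpn22, and is raised by the phosphatase CD45. In the thymus Lck signalling drives the passage of precursors through the pre-T-cell receptor stage, and mice that overexpress Lck in thymocytes develop thymic tumours.

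The 5 probes are shown because the Lck values rest on these short stretches of DNA. They cover chr4:128993235-129015672, or 22.4 kb, in the coordinates of the array files. The build and the strand are not given in the sources used here, nor does the array's annotation place the probes in exons or introns. The files give the sequences as follows, in lower case and in order along the chromosome.

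Probe 1 (Lck): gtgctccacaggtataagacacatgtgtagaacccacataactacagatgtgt

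Probe 2 (Lck): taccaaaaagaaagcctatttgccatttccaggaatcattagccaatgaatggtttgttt

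Probe 3 (Lck): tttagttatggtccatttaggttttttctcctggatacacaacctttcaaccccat

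Probe 4 (BC011474): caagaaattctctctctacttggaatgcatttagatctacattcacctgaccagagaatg

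Probe 5 (BC011474): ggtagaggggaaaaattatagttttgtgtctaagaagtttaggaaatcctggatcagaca

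Probe 1 lies at chr4:128993235-128993287, probe 2 at chr4:128999314-128999373 and probe 3 at chr4:129002576-129002631. Probes 4 and 5 lie at chr4:129009768-129009827 and chr4:129015613-129015672. The share of G and C was 43.4% in probe 1, 35% in probe 2 and 37.5% in probe 3. The median over the window and over the rest of chromosome 4 was 36.7% in each. All 5 probes were well above background and unsaturated on all 22 arrays.

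The log2 ratio at Lck was above 0 by a modest amount in most lymphoma mice, though Lck lay in a called gain in 3 of the 8, as given below. The mean of its 3 probes had a lowest value of -0.44, a median of 0.28 and a highest value of 0.57 in lymphoma mice, against -0.33, -0.02 and 0.34 in no-lymphoma mice. It lay above 0 in 7 of 8 lymphoma mice and in 6 of 14 no-lymphoma mice, and the groups overlapped. The group means were 0.26 ± 0.32 in lymphoma and -0.01 ± 0.16 in no lymphoma, a difference of 0.27. With normexp background correction the difference was 0.15. The highest values were those of lymphoma mice 8 and 4, each at 0.57, then lymphoma mouse 7 at 0.40 and no-lymphoma mouse 11 at 0.34. As a ratio to wildtype DNA, lymphoma mouse 8 read 1.48 and no-lymphoma mouse 11 read 1.27. Next came lymphoma mice 3, 2, 5 and 1 at 0.31, 0.25, 0.23 and 0.17, and no-lymphoma mice 9 and 2 at 0.15 and 0.14. Lymphoma mouse 6, at -0.44, was lower than every other mouse of either group.

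Array noise limits how much of this order can be read. The noise of an array, taken from differences between neighbouring probes, gives a mean of 3 probes an expected error of 0.09 to 0.21 in lymphoma arrays and of 0.08 to 0.32 in no-lymphoma arrays. Neighbours in the order from lymphoma mouse 3 down to no-lymphoma mouse 2 differed by less than the smallest of these errors. Lymphoma mouse 3 had the noisiest lymphoma array. These errors leave out spread particular to single probes, so the error of an Lck mean can be larger. At probes 1 to 3, lymphoma mouse 7 read 0.07, 0.82 and 0.31, and no-lymphoma mouse 4 read -1.17, 0.27 and 0.50.

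The separate probes did not move as one. Probe 1 averaged 0.11 ± 0.30 in lymphoma and -0.23 ± 0.42 in no lymphoma, and probe 2 averaged 0.28 ± 0.56 and 0.03 ± 0.26 in the same groups. Probe 3 averaged 0.37 ± 0.25 in lymphoma and 0.17 ± 0.17 in no lymphoma, and was above 0 in 8 of 8 and 13 of 14 mice. Probe 4 averaged 0.08 ± 0.27 in lymphoma and -0.01 ± 0.33 in no lymphoma. Probe 5 averaged 0.65 ± 0.34 in lymphoma and 0.33 ± 0.23 in no lymphoma. Every probe had the higher mean in lymphoma, by 0.34, 0.26, 0.20, 0.08 and 0.32 for probes 1 to 5. Probes 3 and 5 were also above 0 in nearly all no-lymphoma mice, so a positive ratio at these probes was common to both groups.

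**Figure D1:**
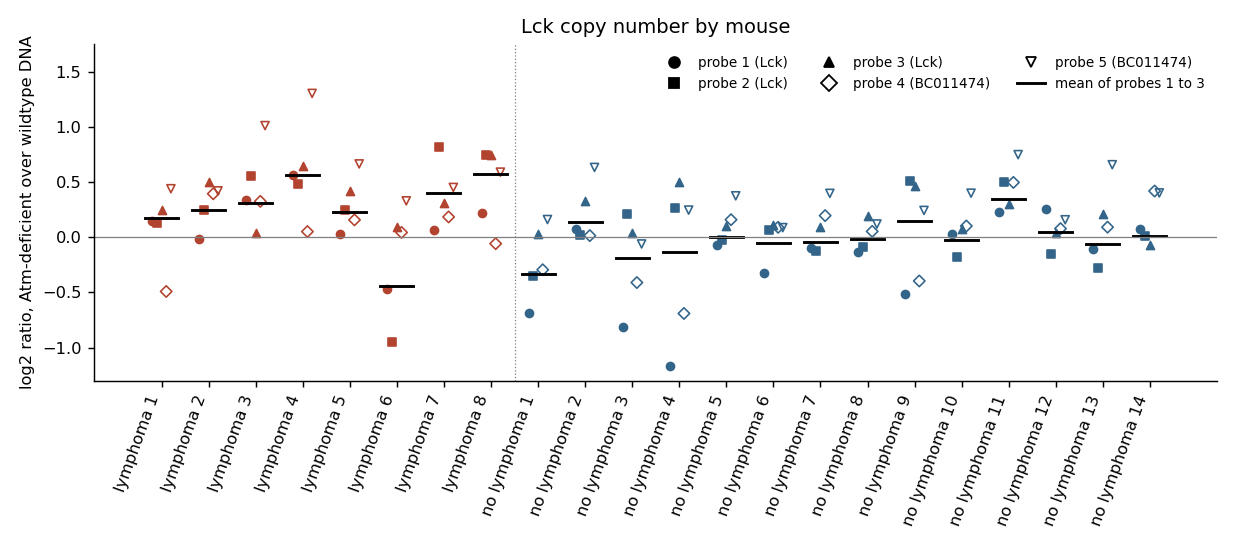
Log2 ratio to wildtype DNA (vertical axis) at the 3 Lck probes (filled) and the 2 BC011474 probes (open) in each of 8 lymphoma mice and 14 no-lymphoma mice, with the mean of the 3 Lck probes as a black bar. The bars run from -0.44 to 0.57 in lymphoma mice and from -0.33 to 0.34 in no-lymphoma mice, and probes of the same mouse often lie further apart than the group means.

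Lymphoma mouse 6 shows how much a few probes decide. Its values were -0.47, -0.95 and 0.09 at probes 1 to 3, but 0.04 and 0.33 at probes 4 and 5. Its 21 probes within 50 kb of Lck, these included, averaged -0.21, and the median over its 1 Mb window was 0.02. Without lymphoma mouse 6 the difference at Lck was 0.37. With all 5 probes, a reading added after the values were seen, lymphoma mice averaged 0.30 ± 0.25 and no-lymphoma mice 0.06 ± 0.18.

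The whole window was higher in lymphoma than in no lymphoma, though by less than Lck itself. Its median had a lowest value of 0.02, a median of 0.13 and a highest value of 0.43 in lymphoma mice, against -0.15, 0.03 and 0.30 in no-lymphoma mice. All 8 lymphoma mice and 10 of 14 no-lymphoma mice were above 0, and the groups overlapped. The means were 0.17 ± 0.14 in lymphoma and 0.04 ± 0.11 in no lymphoma. Of the 149 window probes, 124 (83.2%) had the higher mean in lymphoma, against 56.0% of the probes on the rest of chromosome 4.

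The 21 probes within 50 kb of Lck averaged 0.23 ± 0.20 in lymphoma and -0.03 ± 0.19 in no lymphoma. On the side of higher coordinates, the medians of the probes up to 0.1 Mb away averaged 0.27 ± 0.16 in lymphoma and 0.06 ± 0.14 in no lymphoma. Between 0.1 and 0.5 Mb on that side the means were 0.22 ± 0.16 in lymphoma and 0.07 ± 0.12 in no lymphoma. On the side of lower coordinates they were 0.18 ± 0.18 in lymphoma and -0.01 ± 0.15 in no lymphoma up to 0.1 Mb, and 0.12 ± 0.14 and 0.02 ± 0.11 from 0.1 to 0.5 Mb. From 1 to 2 Mb on the lower side the order turned, with -0.04 ± 0.12 in lymphoma and 0.00026 ± 0.07 in no lymphoma. From 2 to 5 Mb on the higher side the lymphoma mean was again 0.21 ± 0.14, against 0.06 ± 0.11 in no lymphoma. The probes 1 to 5 Mb away on both sides together gave 0.13 ± 0.12 in lymphoma and 0.05 ± 0.11 in no lymphoma. The window exceeded these flanks by 0.05 ± 0.05 in lymphoma and by -0.01 ± 0.06 in no lymphoma, so the larger portion of the raised window ratio in lymphoma was also present in DNA several Mb away.

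**Figure D2:**
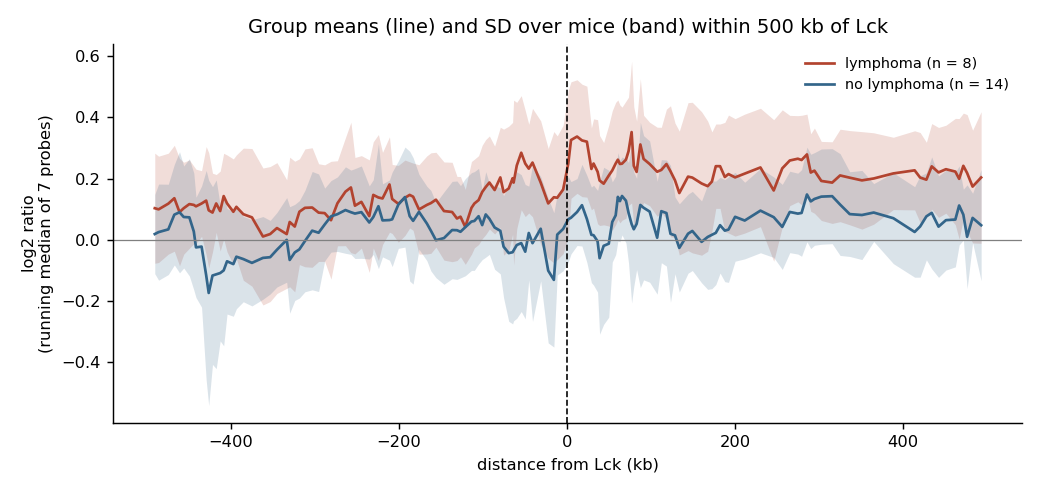
Log2 ratio (running median of 7 probes, averaged over mice) against the distance from Lck in kb, for 8 lymphoma and 14 no-lymphoma mice, with lines for means and bands for 1 SD. The lymphoma line lies above the other over most of the range, with a difference of up to 0.30 at 76.8 kb beyond Lck, and the bands overlap.

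To see where each raised stretch ended, every array was divided into segments of constant log2 ratio, and segments whose mean reached 0.25 were called gains. Lck lay in a gained segment in lymphoma mice 4, 7 and 8, and also in no-lymphoma mouse 11. No other mouse had a gain there. For scale, 7.57% of the 24600 autosomal genes lay in gained segments in 3 or more lymphoma mice, and 7.37% did so with 1 or more no-lymphoma mice as well.

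Broad gains covered Lck in lymphoma mice 4 and 8, and likewise in no-lymphoma mouse 11. In lymphoma mouse 4 the segment read 0.35 and belonged to an unbroken run of gained segments at chr4:115022711-143395713, 28.4 Mb long. In lymphoma mouse 8 the segment read 0.30 and its run of gains at chr4:127752912-148791605 was 21.04 Mb long, and its first segment, which ended just before the one holding Lck, read 0.54. In no-lymphoma mouse 11 the segment at chr4:128282438-140745267 read 0.30 over 12.5 Mb, and its neighbours read 0.11 before and 0.19 after. No-lymphoma mouse 11 also read 0.19 over chromosome 4 outside the window, the highest of its group.

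At these settings the shortest gain was that of lymphoma mouse 7. It read 0.28 over 42 probes at chr4:128918449-129116222, or 0.198 Mb, between segments of 0.04 before and 0.10 after. Just below the limit were lymphoma mouse 2, at 0.24 over chr4:128933081-129480638, and lymphoma mouse 5, at 0.21 over chr4:128928435-129480638, 0.548 and 0.552 Mb long. Both segments ended at the same probe and began just inside the start found in lymphoma mouse 7. These 2 arrays were scanned in the same batch, and the segment of no-lymphoma mouse 2, at 0.17, ended at the next probe, at chr4:129490792. Lymphoma mouse 3 read 0.16 and lymphoma mouse 1 read 0.08 over segments of 12.2 and 12.6 Mb. Lymphoma mouse 6 read -0.07. Among no-lymphoma mice other than mouse 11, the segments read from -0.10 in mouse 14 to 0.18 in mouse 9.

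**Figure D3:**
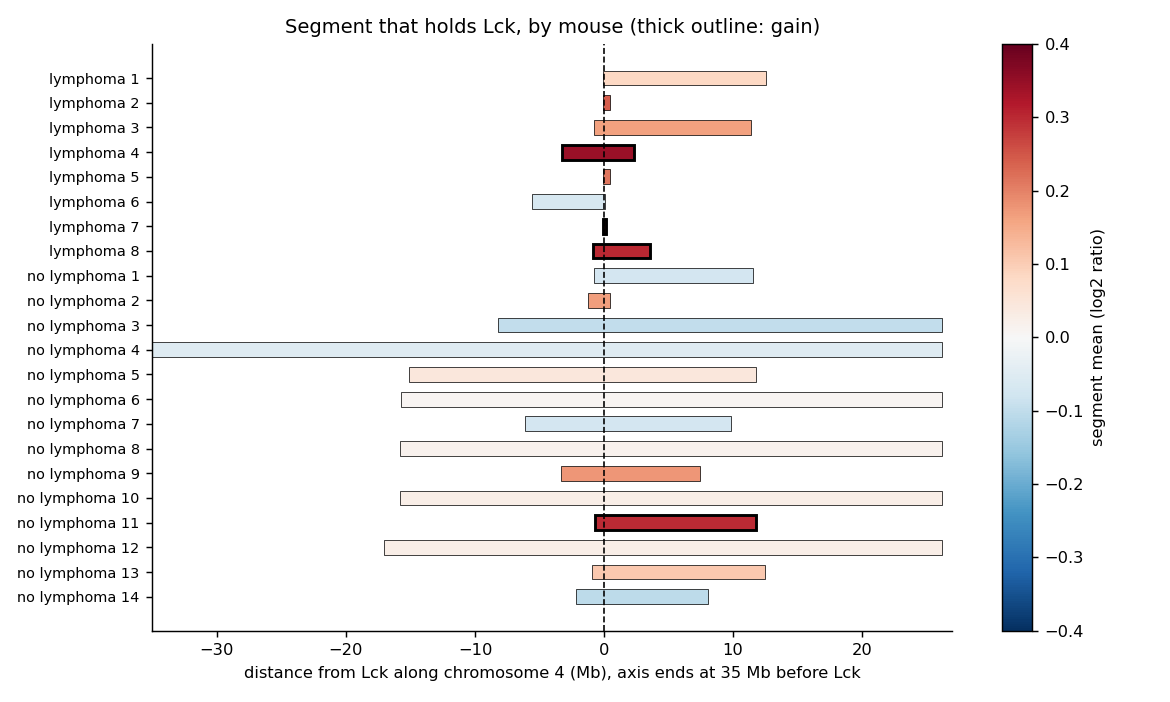
Position of the segment that holds Lck in each mouse, as distance from Lck in Mb, coloured by its mean log2 ratio and outlined thickly where that mean reached 0.25. The gains of lymphoma mice 4 and 8 go on into further gained segments that are not drawn, and that of lymphoma mouse 7 is 0.198 Mb long.

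These calls stood close to their limit. With a limit of 0.15 in place of 0.25, the calls numbered 6 lymphoma and 3 no-lymphoma mice, and with 0.35 there were none. A penalty factor of 5 in place of 3 ended the call in lymphoma mouse 7. A penalty factor of 2 added lymphoma mouse 5, at 0.26 over 0.203 Mb, and cut the segment of lymphoma mouse 4 to 0.609 Mb at 0.49. Centring on the mode in place of the median added lymphoma mice 2 and 3. With normexp background correction lymphoma mouse 4 alone was called. Removing the dependence on GC content from each array, a step added after the values were seen, left lymphoma mice 2 and 4, with no-lymphoma mouse 11, as the mice called. The segments then read 0.25 over 0.481 Mb in lymphoma mouse 2, 0.47 over 0.609 Mb in lymphoma mouse 4, 0.18 in lymphoma mouse 7 and 0.25 in lymphoma mouse 8, whose mean fell just short.

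The 42 probes of the short gain read somewhat above the rest of the window in most lymphoma mice. The stretch holds Lck and was set from these same arrays, so its values are a description and carry no test. Their mean minus that of the other 107 window probes had a lowest value of -0.09, a median of 0.10 and a highest value of 0.22 in lymphoma mice, against -0.13, -0.02 and 0.15 in no-lymphoma mice. It was above 0 in 7 of 8 lymphoma mice and in 5 of 14 no-lymphoma mice. The highest value belonged to lymphoma mouse 7, whose own segment set the stretch. Lymphoma mice 2 and 5 followed at 0.17 each. Next came no-lymphoma mouse 13 at 0.15, above lymphoma mice 1, 3, 4 and 8 at 0.09 to 0.10. In these lymphoma mice the standard error over the 42 probes ran from 0.04 to 0.07. The median GC content was 36.7% both in these 42 probes and in the other 107. That of their surroundings along the chromosome, averaged over 21 neighbouring probes, was 37.2% and 36.7%. With the dependence on GC content removed, this difference had a median of 0.09 in lymphoma and -0.02 in no lymphoma, and 7 of 8 and 5 of 14 were above 0.

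Chromosome 4 outside the window was compared to see whether the groups differed over the chromosome as a whole. The broad gains over Lck in lymphoma mice 4 and 8 and no-lymphoma mouse 11 reach into this part, so this part is not independent of Lck. Its median had a lowest value of -0.02, a median of -0.01 and a highest value of 0.29 in lymphoma mice, against -0.02, 0.00053 and 0.19 in no-lymphoma mice. The means were 0.04 ± 0.11 in lymphoma and 0.02 ± 0.05 in no lymphoma, a difference of 0.03 that was within the spread between mice (exact two-sided permutation p = 0.476). The difference rested on lymphoma mouse 2, and without that mouse it was -0.011 (exact permutation p = 0.774). Lck minus this chromosome 4 level averaged 0.21 ± 0.32 in lymphoma and -0.03 ± 0.13 in no lymphoma.

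Lymphoma mouse 2 carried its chromosome 4 gain away from Lck. It read 0.35 over the probes more than 5 Mb before Lck, and its gain ended before the window, whose median was 0.12. Beyond Lck by more than 5 Mb, lymphoma mice read 0.11 ± 0.10 and no-lymphoma mice 0.01 ± 0.05. Before Lck by more than 5 Mb they read 0.02 ± 0.14 and 0.01 ± 0.05.

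**Figure D4:**
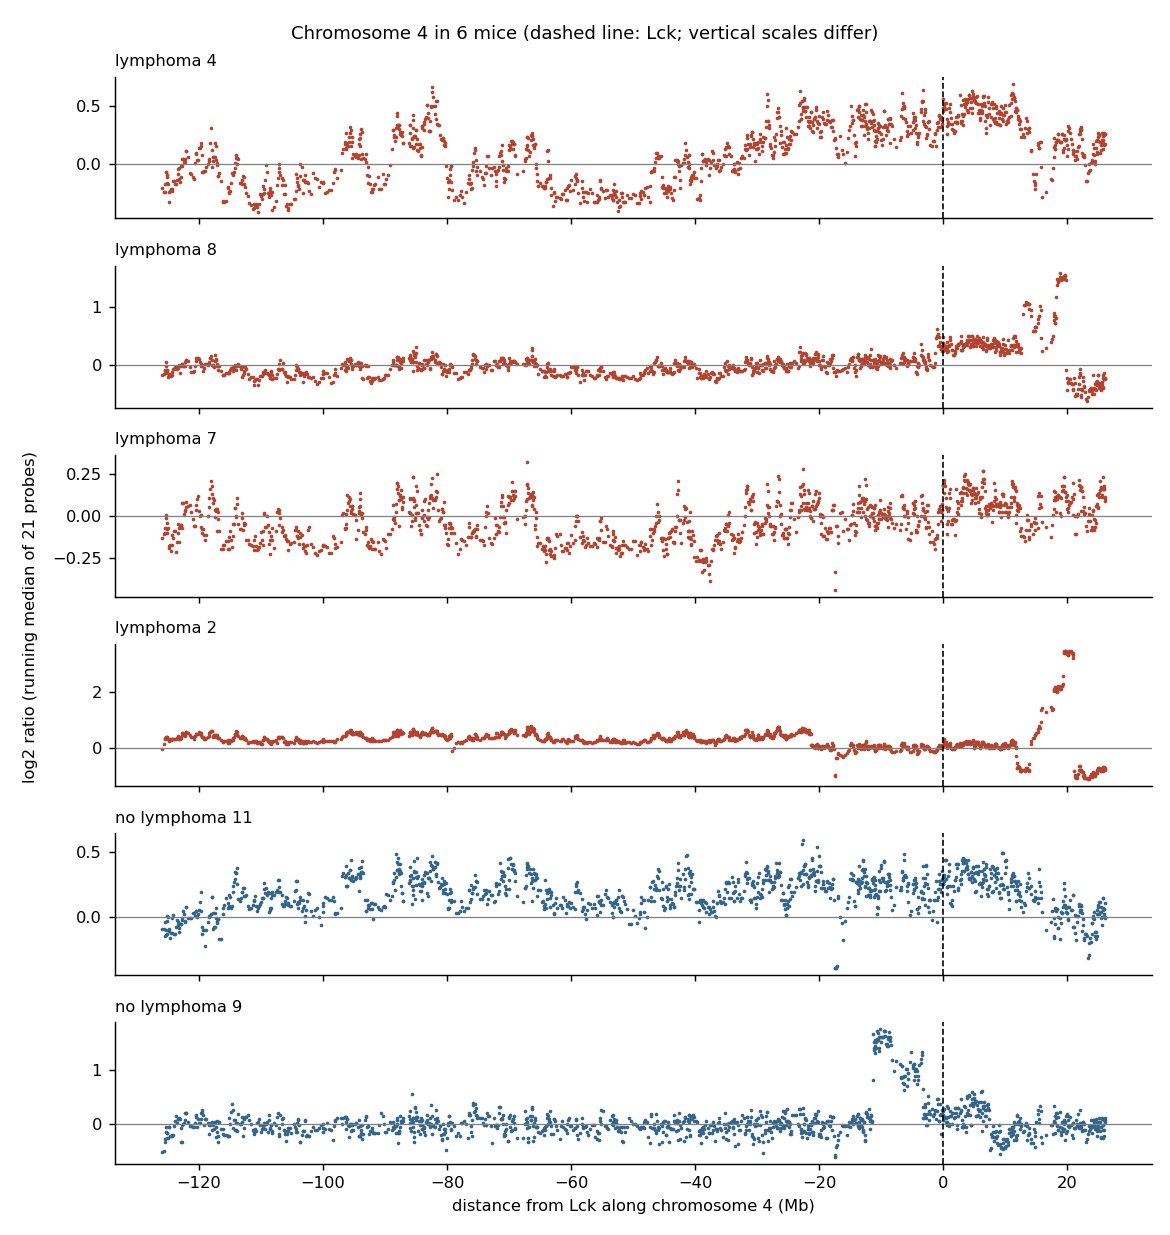
Log2 ratio along chromosome 4 (running median of 21 probes, every 10th probe drawn) against the distance from Lck in Mb in 4 lymphoma and 2 no-lymphoma mice, with a vertical scale of its own for each mouse. Broad raised stretches hold Lck in lymphoma mice 4 and 8, as in no-lymphoma mouse 11, and Lck lies outside the high stretches of lymphoma mouse 2 and no-lymphoma mouse 9.

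Arrays were scanned in 6 batches, of which 4 held both groups. Within these, Lck differed between lymphoma and no lymphoma by 0.21, 0.26, 0.47 and 0.04 in batches 1, 3, 5 and 6, and the window median by 0.11, 0.10, 0.20 and -0.01. Batch 6 held lymphoma mice 6 and 7, the lowest and the third highest Lck values, with no-lymphoma mouse 13. With batch as a block the Lck difference was 0.25. For chromosome 4 outside the window the values were 0.02, 0.14, -0.06 and -0.03 in the same 4 batches, and 0.03 with batch as a block (exact permutation p = 0.806, smallest possible 0.00347 over 288 arrangements).

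Genes around Lck followed the window. The arrays name 44 genes in it, 18 of them with 3 or more probes. Of the 43 genes other than Lck, 37 had the higher mean in lymphoma, or 86.0%, with differences from -0.28 to 0.38 and a median of 0.13. BC011474, described above as the same kinase as Lck, was counted among these 43 under its own name. On the rest of chromosome 4, 1067 of 1502 genes (71.0%) had the higher mean in lymphoma, with a median difference of 0.07. The short gain of lymphoma mouse 7 held 13 genes besides Lck, BC011474 among them, and 4 of the 13 had 3 or more probes. All 13 had the higher mean in lymphoma, with a median difference of 0.20, though this stretch was itself chosen from these arrays. The same held for all 9 window genes after the stretch, with a median of 0.13, and for 15 of the 21 before it, with a median of 0.09.

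At the edges of that stretch lie Bsdc1, at chr4:128911675-128928494, and Kpna6, at chr4:129088973-129116222. Bsdc1 averaged 0.07 ± 0.26 in lymphoma and -0.05 ± 0.30 in no lymphoma. Kpna6, an importin that carries proteins into the nucleus, averaged 0.23 ± 0.16 in lymphoma and 0.03 ± 0.24 in no lymphoma. Just beyond Kpna6, Tmem39b averaged 0.18 ± 0.25 in lymphoma and 0.05 ± 0.19 in no lymphoma.

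Inside the stretch, Hdac1, a histone deacetylase and the nearest neighbour of Lck with 3 or more probes, averaged 0.12 ± 0.15 in lymphoma and -0.08 ± 0.28 in no lymphoma. Txlna, a taxilin, averaged 0.27 ± 0.20 in lymphoma and 0.11 ± 0.16 in no lymphoma. Eif3i, a subunit of a translation initiation factor, averaged 0.12 ± 0.13 in lymphoma and -0.07 ± 0.33 in no lymphoma, on 2 probes. The largest difference of the window, 0.38, was that of BC021480, which has 1 probe.

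Further out, the differences were smaller on the side of lower coordinates. Rbbp4, a histone-binding protein, averaged 0.13 ± 0.18 in lymphoma and 0.03 ± 0.12 in no lymphoma. Yars, a tyrosyl-tRNA synthetase, averaged -0.06 ± 0.21 in lymphoma and -0.03 ± 0.51 in no lymphoma. On the other side, Khdrbs1, an RNA-binding substrate of Src family kinases, averaged 0.22 ± 0.15 in lymphoma and 0.04 ± 0.18 in no lymphoma, and Adgrb2, an adhesion receptor, 0.23 ± 0.16 and 0.11 ± 0.15 in the same groups.

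The other Src family kinases showed no call. In the limma test over 12974 autosomal genes with at least 3 probes, 1191 (9.18%) passed an adjusted p of 0.05. Of these, 866 (6.67%) were higher and 325 (2.51%) were lower in lymphoma. The total was 788 without lymphoma mouse 4, 640 with normexp background correction and 426 with scan batch as a block. An unadjusted p under 0.05 was found for 3386 of the 12974 genes. Of the 8 other kinases of the family, 0 passed and 1 had an unadjusted p under 0.05, with a median difference of 0.07 against 0.05 over all genes tested. That gene was Fgr, a kinase of myeloid cells at chr4:132354235-132379325. It averaged 0.24 ± 0.18 in lymphoma and 0.06 ± 0.20 in no lymphoma, a difference of 0.18 (limma, adjusted p = 0.179), and lay in a gained segment in 2 lymphoma mice and 1 no-lymphoma mouse. Lyn, a kinase of B and myeloid cells at the opposite end of chromosome 4 (chr4:3613297-3710403), averaged 0.04 ± 0.16 in lymphoma and -0.02 ± 0.14 in no lymphoma (limma, adjusted p = 0.536). Fyn, the other Src kinase at the T-cell receptor, averaged 0.11 ± 0.10 in lymphoma and 0.03 ± 0.08 in no lymphoma (limma, adjusted p = 0.192).

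Genes that work with Lck in T-cell receptor signalling were on other chromosomes, and 25 of the listed genes could be tested. Of these, 5 passed as higher in lymphoma (background 6.67%) and 0 as lower (2.51%), with a median difference of 0.11 against 0.05 over all genes tested. Another 5 had an unadjusted p under 0.05 only. Over all 12974 genes tested, 3386 had an unadjusted p under 0.05, those that passed included. With scan batch as a block, which gives no weight to the arrays of batches 2 and 4, 1 gene passed, Fyb, and the median difference of the list was 0.09. Without the 3 arrays of batch 2, whose Atm probe read below 0, 3 passed, Fyb, Grap2 and Ptpn22. Leaving out lymphoma mouse 2, 3, 4 or 5 or no-lymphoma mouse 1 or 3 also left 3 genes, and leaving out lymphoma mouse 6 gave 8.

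Adaptors led the list. Grap2, the adaptor that joins Lat to Lcp2, averaged 0.59 ± 0.20 in lymphoma, above 0 in 8 of 8 mice, against 0.10 ± 0.24 in no lymphoma (difference 0.48, limma adjusted p = 0.00179). Fyb, an adaptor bound by Lcp2 and Fyn, averaged 0.44 ± 0.22 in lymphoma and 0.02 ± 0.12 in no lymphoma (difference 0.42, limma adjusted p = 0.000236). Grap2 and Fyb both lie on chromosome 15, where Grap2 was in a gained segment in 7 lymphoma mice and Fyb in 5.

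Ptpn22 and Csk, the inhibitors of Lck named above, also passed, but under fewer settings. Listed beside them, Pag1 (difference 0.11, limma adjusted p = 0.0784) and Ptpn6 (difference 0.09, limma adjusted p = 0.743) did not pass at the main settings. Ptpn22 averaged 0.21 ± 0.10 in lymphoma and 0.03 ± 0.09 in no lymphoma (difference 0.18, limma adjusted p = 0.00931). Csk averaged 0.32 ± 0.12 in lymphoma and 0.06 ± 0.20 in no lymphoma (difference 0.26, limma adjusted p = 0.0348), on chromosome 9, which also carries Atm. Neither passed with normexp background correction, with scan batch as a block or once the 5 arrays with an Atm probe under 0.5 were left out. Csk also did not pass without batch 2, or with any one of lymphoma mice 2, 3, 4 and 5 or no-lymphoma mice 1, 3 and 4 left out, or with signs turned for the no-lymphoma arrays numbered 1, 3 and 4 or 3, 4 and 9. Neither gene lay in a gained segment in any mouse.

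The substrates and coreceptors of Lck did not pass. Cd247, the zeta chain, averaged 0.45 ± 0.29 in lymphoma and 0.09 ± 0.34 in no lymphoma (limma, adjusted p = 0.0982). Cd3e averaged 0.22 ± 0.18 in lymphoma and 0.07 ± 0.41 in no lymphoma (limma, adjusted p = 0.520). Zap70 averaged 0.19 ± 0.11 in lymphoma and 0.11 ± 0.08 in no lymphoma (limma, adjusted p = 0.206). Cd4 averaged 0.25 ± 0.13 in lymphoma and 0.05 ± 0.26 in no lymphoma (limma, adjusted p = 0.184). Cd3d, Cd3g, Unc119, Lat, Sh2d2a and Bcl10 had too few probes to be tested, and Cd8a, Ptprc, Dusp22, Cblb and Sh2d1a were not analysed here.

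The genes most like Lck in their pattern over the 22 arrays were found by Pearson's r of gene means, as a description, since genes on the same arrays share noise and scan batch. On chromosome 4 outside the window these included BC013712 (r = 0.87), AF268912 (0.87), Catsper4 (0.86) and Nipal3 (0.83), all 3.17 to 5.85 Mb beyond Lck. Catsper4 is a sperm calcium channel subunit. On other autosomes they included Pdgfb (0.89) on chromosome 15, Foxp4 (0.87) on chromosome 17, Map3k20 (0.87) on chromosome 2 and AK209393 (0.87) on chromosome 8.

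The closest genes on other autosomes had values of r as high as the closest on chromosome 4. Pdgfb, a growth factor chain, averaged 0.56 ± 0.48 in lymphoma and 0.09 ± 0.20 in no lymphoma, and was lowest in lymphoma, as Lck was, at -0.57. The median r with Lck was 0.59 over 17 window genes, 0.33 over 822 genes on the rest of chromosome 4 and 0.19 over 12134 genes on other autosomes. In bins of 5 Mb, without the 21 probes within 50 kb of Lck, r with Lck was highest at 0.83 for the bin centred 3.50 Mb beyond Lck. It was 0.36 at 18.5 Mb beyond Lck and -0.18 at 23.5 Mb. On the side before Lck, with distances as negative values, r rose and fell along the chromosome. It was 0.31 at -6.50 Mb, 0.60 at -21.5 Mb, -0.43 at -51.5 Mb and 0.46 at -86.5 Mb.

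**Figure D5:**
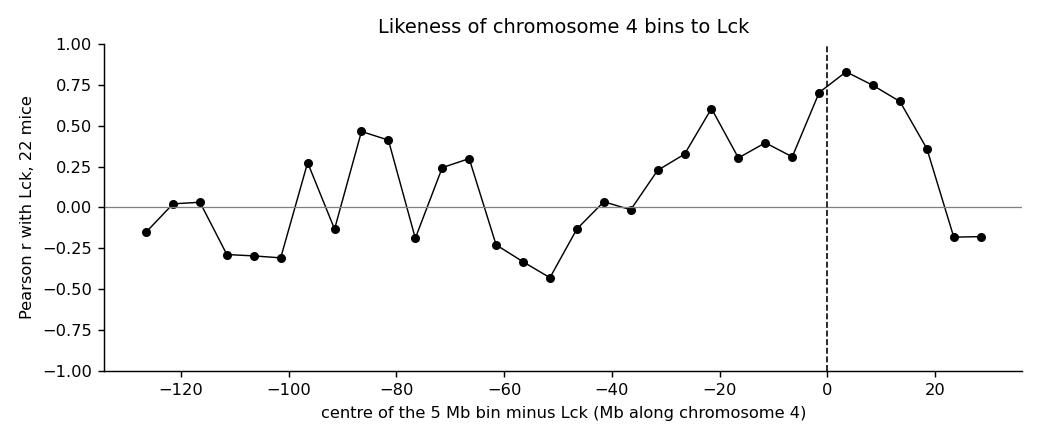
Pearson r between Lck and the median of each 5 Mb bin of chromosome 4 over 22 mice, against the distance of the bin's centre from Lck in Mb. The values are highest, at 0.65 to 0.83, in the 3 bins centred 3.50 to 13.5 Mb beyond Lck, and 0.70 in the bin of 125 to 130 Mb that holds Lck, counted without the 21 probes within 50 kb of it.

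Arrays differed in sign at an Atm probe, which bears on each value of the no-lymphoma group. At the Atm probe with the highest mean in lymphoma, 17 arrays read 0.67 to 1.69, but those labelled no-lymphoma mouse 1, 3 and 4, which make up scan batch 2, read -1.08, -0.72 and -0.63. Those labelled no-lymphoma mouse 5 and 6 read 0.44 and 0.08. With these dyes a lost stretch of Atm would read below 0, and which stretch was altered is not stated, so the probe does not settle which arrays follow their labels. In an array whose dyes ran the other way, a gain given here would be a loss. Without batch 2 the Lck difference was 0.21, and without all 5 arrays 0.20. With the sign of the batch 2 arrays turned, a setting added after the values were seen, it was 0.17. Of the 231 array pairs, 8 correlated below -0.3 over autosomal probes, the lowest at -0.48. All 8 involved the arrays labelled no-lymphoma mouse 3, 4 or 9, the noisiest. The labels state the dyes, so the direction was kept, and with the sign of these 3 arrays turned the Lck difference was 0.24.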

How the data were processed

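Array CGH of 22 Atm-deficient thymocyte DNAs was analysed from scanner files. The deposited spot brightness is given as intensity in both channels, and the processed signals used here were background-subtracted and dye-normalised with Feature Extraction 9.1.3.1, per the file headers. The submitters' processing notes name Agilent Feature Extraction 9.1. The series' deposited value table holds log10 of red over green, per the file headers of the matching scanner column, and equalled that column with a largest difference of 0. Its column medians ran from -0.0199 to 0.0164, and scale, centring and direction are therefore known. The deposited flag columns were used to leave out 3 to 111 outlier spots per array.

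Log2 ratios of red over green were computed, averaged over spots of a probe and centred on the autosomal median, without loess or quantile normalisation. The share of spots not well above background was 0.089% to 1.54% by array, and precision is limited by how many arrays there are. Gene names came from the files and, for 3605 synonyms and 12191 symbols of 25811 names, from a RefSeq table of GRCm38.p6 used for names only. Segments were found by optimal partitioning with Python 3.11.15, numba 0.67.0 and numpy 2.4.6 (a penalty per break of noise variance by log probe number by 3, at least 5 probes, limit of 4 noise SD from the 7-probe running median). The gene test used limma 3.58.1 under R 4.3.3 (lmFit, then eBayes, Benjamini-Hochberg adjustment over all genes). Chromosome 4 was tested with an exact two-sided permutation over 319770 splits. The segmentation and the gene test were tested on simulated data. Each array is a separate mouse by its label.

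The named genes were Lck, window genes along the chromosome with those at breakpoints first, the 5 most like Lck on chromosome 4 and the 5 on other autosomes, list genes past the threshold, Fgr and Lyn, of which 3 are not reported here. Fyn, Cd247, Cd3e, Zap70, Cd4, Pag1 and Ptpn6 were named for their role after their values were seen. The members and lists were chosen with earlier results of these data known. Alternatives were centring, normexp (offset 50, on median spot signals, since most files hold no mean), scan batch, arrays left out, signs, probe choice, segmentation limits and GC content. The GC, 5-probe and 2-array alternatives and the turned signs of scan batch 2 were chosen after seeing the data.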

Additional observations from a re-analysis of the deposited data

Results flagged for a closer look

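In the lymphoma group, 4 values lay far from the nearest of the other 7 mice by Dixon's gap rule, which chance meets in about 1 of 20 groups. The Lck mean of lymphoma mouse 6 was -0.44, and its mean over the probes within 50 kb of Lck was -0.21. Chromosome 4 outside the window read 0.29 in lymphoma mouse 2, and the probes more than 5 Mb before Lck read 0.35 in the same mouse. In each mouse the 2 values share probes, so the 4 are not independent, and the rate of 1 in 20 does not apply to them together.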

How the results depend on the processing

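The Lck difference of 0.27 and that of Lck minus chromosome 4 (0.24) kept their direction under every alternative run, from 0.15 and 0.11 with normexp background correction upwards. With one array left out in turn they ran from 0.22 to 0.37 and from 0.19 to 0.33. Chromosome 4 outside the window ran from -0.011 (without lymphoma mouse 2) to 0.039 (without no-lymphoma mouse 11) with one array left out. The arrays with a gain over Lck numbered 4, but 9 with a limit of 0.15, 0 with 0.35 and 1 with normexp. Counts of autosomal genes that differed were 1191, but 640 with normexp, 426 with scan batch as a block, 708 with scan batch 2 left out, 488 with the 5 low-Atm-probe arrays left out, and 788 (without lymphoma mouse 4) to 1654 (without no-lymphoma mouse 11) with one array left out. Centring on the mode gave 989 higher and 91 lower, against 866 and 325. T-cell receptor genes numbered 5, but 2, 1, 3 and 2 in the same order of settings, 9 with the sign of the arrays labelled no-lymphoma mouse 3, 4 and 9 turned, and 3 to 8 with one array left out (3 without lymphoma mouse 2, 3, 4 or 5 or no-lymphoma mouse 1 or 3, and 8 without lymphoma mouse 6). Src family kinases numbered 0, but 1 (Frk, lower) with these signs turned, and 0 with any array left out. The causes were not tested. No paired analysis was possible because each array is a separate mouse and the labels match no mice between the groups. Array noise and the 3 probes of Lck limit what can be read in a single mouse.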

Other observations

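Distal chromosome 4 held larger changes than the one at Lck in 2 of the 8 lymphomas. In lymphoma mouse 2 the median from 145 to 150 Mb was 2.29, and beyond it, from 150 to 155 Mb, it was -0.87. In lymphoma mouse 8 the same stretches read 0.82 and -0.38. The other 6 lymphoma mice read from -0.01 to 0.17 from 145 to 150 Mb, and the 14 no-lymphoma mice from -0.07 to 0.14.

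Over the 25 bins of 5 Mb that end before Lck, the median reached 0.25 in size in no-lymphoma mice 7, 9 and 11 and in no other of the 14. No-lymphoma mouse 9, one of the noisiest arrays, read 0.55 from 115 to 120 Mb and 1.05 from 120 to 125 Mb, a stretch that ended before the window. No-lymphoma mouse 7 read -0.37 from 85 to 90 Mb and -0.43 from 90 to 95 Mb. No-lymphoma mouse 11 reached that size in 7 bins, the highest at 0.33. Shorter stretches with ratios far from 0 lay between 111 and 113 Mb. There no-lymphoma mouse 2 read 5.21 at chr4:111608791-111726929, and no-lymphoma mice 5 and 6 read -1.84 and -1.67 at chr4:111805869-111982744. Lymphoma mice also had such ratios there, with -1.06 at chr4:111458080-111590951 in lymphoma mouse 2 and -0.34 at chr4:111349364-113648451 in lymphoma mouse 1. These are ratios to wildtype DNA and the labels give no strain, and whether they were inherited or acquired was not tested.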
